A study of Mus musculus with 6 samples.

Results

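The genes described here are 7 that mark type 1 conventional dendritic cells (cDC1s) or serve their cross-presentation of antigen: Wdfy4, Cadm1, Xcr1, Tlr3, Naaa, Ppt1 and Snx22. They were taken by symbol, and all 7 were among the 23420 gene symbols counted. Cross-presentation is the display of peptides from engulfed material on MHC class I to CD8 T cells, and cDC1s are the dendritic cells best known for it. In the thymus these cells gather in the medulla, where epithelial cells secrete Xcl1, the ligand of the receptor Xcr1, and they pass self antigens to developing T cells. A cDC1 is usually recognised by Xcr1 on its surface and little Sirpa, and a cDC2 by the reverse.

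RNA was sequenced from 6 libraries of dendritic cells sorted from the thymus of wild-type mice, 2 libraries in each of 3 groups. PBS Sirpa+ DCs (high CD11c, Sirpa+) and PBS pDCs (plasmacytoid DCs, low CD11c, B220+) came from mice labelled PBS at 2 weeks. YG+ pDCs came from mice with subcutaneous MC38 tumours, a mouse colon carcinoma line, and carried yellow-green microspheres injected into the tumour after 12 days, with cells taken 2 days later. No cDC1 sort was analysed here, so the genes are read in cells that are named for other lineages, and tumour, injection and gating for microspheres cannot be told apart in the YG+ group. All libraries are labelled batch 1. Neither the age of the mice nor whether each library is from its own animal is labelled, and the p-values therefore cover the spread among these samples alone, some of which may be technical.

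Levels are given as CPM, the counts of a gene per 1000000 gene counts of its library. Libraries held 177844 to 713966 gene counts, which was 0.842% (95% Wilson interval 0.838% to 0.846%) to 3.36% of uniquely placed reads and covered 11238 to 13446 genes. The shallowest, PBS pDC replicate 1, correlated at 0.726 with its partner in log2 CPM, against 0.934 between the YG+ pDC and 0.855 between the Sirpa+ DC libraries. These correlations run over genes, which are no independent replicates. Tsix, which lies opposite to Xist, held 2.70 to 20.5 times the counts of Xist in the 6 libraries, with the highest ratio in PBS pDC replicate 1. Whether the counted reads are of a gene's own strand, of the opposite strand or of both is not stated in what was used here, and this limit applies to every CPM given. All 10 pDC markers were higher in PBS pDCs than in Sirpa+ DCs, among them Siglech at 951 ± 25.1 against 42.0 ± 0.178 CPM (SD, n = 2). For Sirpa itself, 521 and 714 CPM were counted in Sirpa+ DCs, 174 and 333 CPM in PBS pDCs and 302 and 391 CPM in YG+ pDCs, and PBS pDCs did not differ from Sirpa+ DCs past the threshold (-1.34 ± 0.44, adjusted p = 0.0753, edgeR). Of 9 tested cDC2 markers, Sirpa among them, 2 were lower and 1 was higher in PBS pDCs (median -0.47). The Sirpa+ DC sort also held the summed CPM of 7 macrophage genes at 1857 and 3112, against 155 to 191 in PBS pDCs and 400 to 975 in YG+ pDCs. The sum of 10 genes of mature DCs was 5797 to 6476 CPM in Sirpa+ DCs, 872 to 993 in PBS pDCs and 1728 to 2310 in YG+ pDCs, and 8 of 9 tested were lower in PBS pDCs than in Sirpa+ DCs. These sums have the same order of groups as Wdfy4 and Naaa, and their part in those levels was not tested. The pDC sorts held 6 of 6 B cell markers, and the Sirpa+ DC libraries 3 of 6. These summed to 405 to 541 CPM in PBS pDCs, 490 to 578 in YG+ pDCs and 15.2 to 19.1 in Sirpa+ DCs. All 5 tested were higher in PBS pDCs, and in YG+ pDCs, than in Sirpa+ DCs by edgeR. Beside the marker counts above, 4.56% of all tested genes were called higher and 6.9% lower in PBS pDCs than in Sirpa+ DCs. In YG+ pDCs 3.07% were called higher than in Sirpa+ DCs. The part of B cell RNA in the pDC levels of the 7 genes was not tested.

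The upstream sequences are shown of Wdfy4, Xcr1 and Naaa, the 3 tested genes for which both Sirpa+ DC libraries lay above all 4 pDC libraries. Such separation is common. Of 8141 tested genes, 22.3% were lower without overlap in PBS pDCs than in Sirpa+ DCs, and 26.1% in YG+ pDCs. The share that met both was not counted. Each run is the 250 bases before the RefSeq start (GRCm38.p6), 5′ to 3′ on the gene's own strand, which is the minus strand for all 3. Capitals mark the E-box CANNTG, the motif bound by basic helix-loop-helix factors such as Tcf4, which maintains the pDC lineage. The windows are chr14:33185067-33185316 for Wdfy4, chr9:123862030-123862279 for Xcr1 and chr5:92278182-92278431 for Naaa. The Wdfy4 window is upstream by RefSeq only. It lies within the gene as annotated in GENCODE M21, which begins at 33185508 on the minus strand.
Wdfy4: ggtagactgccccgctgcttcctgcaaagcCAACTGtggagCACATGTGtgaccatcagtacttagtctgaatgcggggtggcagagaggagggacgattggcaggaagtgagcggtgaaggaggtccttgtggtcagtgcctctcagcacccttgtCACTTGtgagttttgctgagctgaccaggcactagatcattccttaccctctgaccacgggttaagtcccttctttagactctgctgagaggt
Xcr1: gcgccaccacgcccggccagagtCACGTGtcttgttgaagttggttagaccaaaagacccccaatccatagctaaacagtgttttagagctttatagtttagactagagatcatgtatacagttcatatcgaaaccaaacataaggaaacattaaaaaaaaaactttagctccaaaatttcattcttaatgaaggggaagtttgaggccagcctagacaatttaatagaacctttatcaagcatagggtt
Naaa: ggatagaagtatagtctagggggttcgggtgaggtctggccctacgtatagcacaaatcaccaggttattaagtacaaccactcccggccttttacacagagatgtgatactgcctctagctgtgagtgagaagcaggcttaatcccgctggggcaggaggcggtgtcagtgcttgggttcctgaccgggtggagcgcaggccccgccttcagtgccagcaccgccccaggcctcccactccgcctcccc

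The Wdfy4 window held 4 E-boxes, 2 of them overlapping in CACATGTG, the Xcr1 window held 1 and the Naaa window 0. Of the 7 genes, 6 had an entry in the promoter table, and 4 of these 6 held an E-box, against 66.1% of 27018 promoters of the same length. Both strands were searched. The interferon response element (GAAA, any 2 bases, GAAA; 3.04% of promoters), the Ets-IRF composite element (GGAA, any 2 bases, GAAA; 2.38%) and the AP-1 site TGANTCA (6.87%), to which Irf8 and Batf3 complexes of cDC1s can bind, had 0 matches in the 6 windows. A match or its absence in these letters describes the window only.

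Among the genes of antigen handling, Wdfy4 (chromosome 14, 32959547 to 33185508, minus strand, GENCODE M21 on GRCm38) encodes a BEACH domain protein that cDC1s need to cross-present cell-associated antigen. Its CPM was 1199 and 1197 in Sirpa+ DC replicates 1 and 2. PBS pDC replicates 1 and 2 had 247 and 517 CPM, and YG+ pDC replicates 598 and 566 CPM. Both Sirpa+ DC libraries lay above every pDC library, and both YG+ pDC libraries lay above both PBS pDC libraries. The mean was 3.13 times as high in Sirpa+ DCs as in PBS pDCs, and the log2 fold change (pDC minus Sirpa+ DC) was -1.72 ± 0.44, where the error is the SE (adjusted p = 0.0289 by the quasi-likelihood test of edgeR). Wdfy4 was read in all 3 groups, with 44 to 629 counts in a library.

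The YG+ pDC mean of Wdfy4 was below that of Sirpa+ DCs by a factor of 2.06, which did not pass the test (-1.14 ± 0.43, adjusted p = 0.145, edgeR). Against PBS pDCs the YG+ pDC difference was 0.58 ± 0.43 (adjusted p = 0.658, edgeR). These contrasts share libraries and are given side by side. The Wdfy4 difference between PBS pDCs and Sirpa+ DCs was also called without PBS pDC replicate 1 (-1.36, adjusted p = 0.0281, edgeR) and without replicate 2 (-2.25, adjusted p = 0.00641, edgeR). It was not called without Sirpa+ DC replicate 1 (adjusted p = 0.128), without replicate 2 (adjusted p = 0.145) or without either YG+ pDC library (adjusted p = 0.0858 and 0.0830), at log2 fold changes of -1.69 to -1.76 by edgeR, nor in a fit of the 4 libraries compared (adjusted p = 0.115). In such a fit of YG+ pDCs and Sirpa+ DCs alone, Wdfy4 (adjusted p = 0.0153), Naaa (adjusted p = 0.0230) and Snx22 (adjusted p = 0.0152) were called lower in YG+ pDCs by edgeR.

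Xcr1 (chromosome 9, 123852315 to 123862029, minus strand), the chemokine receptor that defines cDC1s, was the member with the largest called difference. It had 20 and 35 counts in the Sirpa+ DC libraries (76.6 and 66.6 CPM), 4 and 1 counts in the PBS pDC libraries (22.5 and 2.42 CPM) and 11 and 5 counts in the YG+ pDC libraries (15.4 and 8.84 CPM). The Sirpa+ DC libraries were above all 4 pDC libraries, and the pDC groups overlapped. The log2 fold change was -2.96 ± 0.84 in PBS pDCs against Sirpa+ DCs (adjusted p = 0.0442, edgeR) and -2.60 ± 0.69 in YG+ pDCs against Sirpa+ DCs (adjusted p = 0.0450, edgeR).

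Pooled over the libraries of a group, Xcr1 was at 69.9 CPM in Sirpa+ DCs (exact 95% Poisson interval 52.7 to 91.0), 8.45 CPM in PBS pDCs (2.74 to 19.7) and 12.5 CPM in YG+ pDCs (7.15 to 20.3), with intervals that cover counting error only. A library in which Xcr1 had no count could still hold 4.20 to 16.9 CPM, at 3 counts, so PBS pDC replicate 2 with its single count was below that limit. The Xcr1 calls were lost when any 1 compared library was left out, except PBS pDC replicate 1. Against Sirpa+ DCs the PBS pDC difference was -1.62 without PBS pDC replicate 2 (adjusted p = 0.166, edgeR) and -4.88 without replicate 1 (adjusted p = 0.00233, edgeR). Removal of a Sirpa+ DC library gave adjusted p of 0.176 and 0.180, and for YG+ pDCs the values without 1 compared library were 0.109 to 0.313, all by edgeR. DESeq2 gave PBS pDCs an adjusted p of 0.0520, and a fit of the 4 libraries compared gave 0.0782 by edgeR. Between the pDC groups Xcr1 differed by 0.36 ± 0.94 (adjusted p = 0.920, edgeR), although the plain means were 12.1 CPM in YG+ and 12.5 CPM in PBS pDCs.

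**Figure D1:**
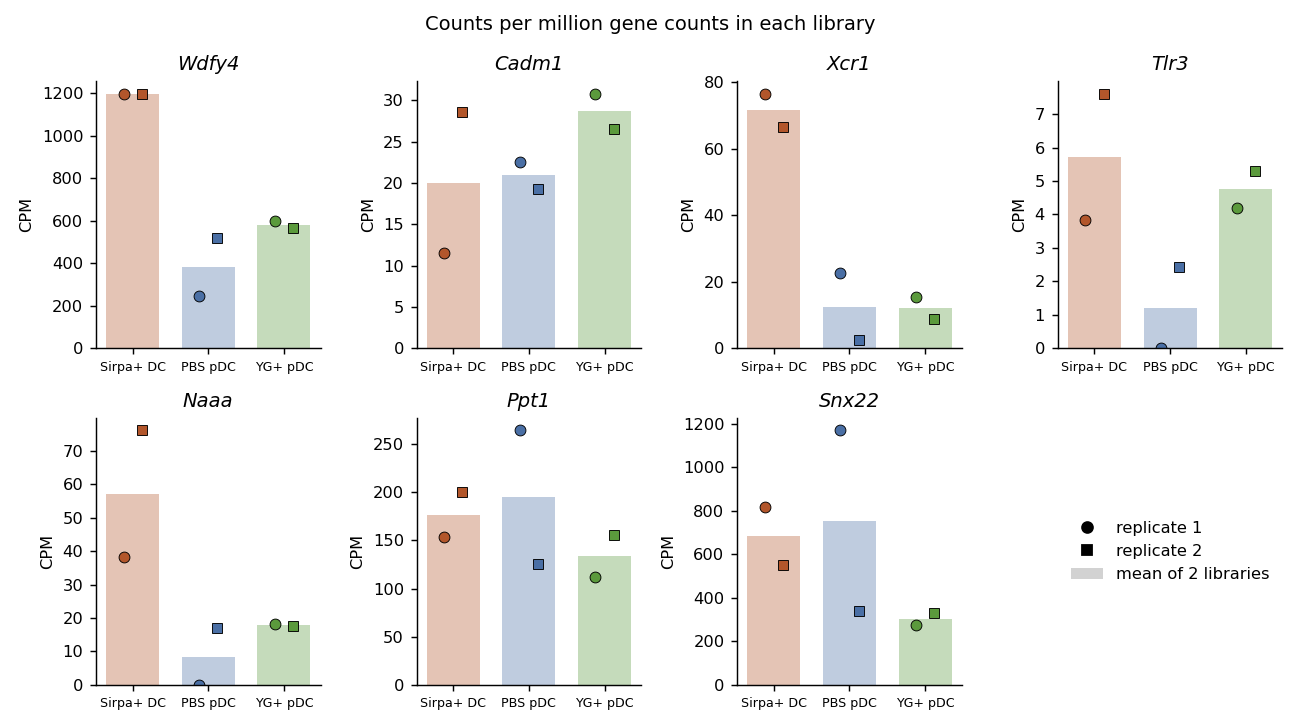
CPM (y axis, a separate linear scale from 0 for each gene) of the 7 genes in PBS Sirpa+ DCs, PBS pDCs and YG+ pDCs, with circles for replicate 1, squares for replicate 2 and bars for the mean of 2 libraries. Wdfy4, Xcr1 and Naaa are highest in both Sirpa+ DC libraries, Cadm1 and Ppt1 overlap between Sirpa+ DCs and each pDC group, and Snx22 has its highest value, 1170 CPM, in PBS pDC replicate 1.

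Naaa (chromosome 5, 92257659 to 92278170, minus strand) encodes the lysosomal N-acylethanolamine acid amidase, a lipid hydrolase with strong expression in cDC1s. It had 10 and 40 counts in the Sirpa+ DC libraries (38.3 and 76.1 CPM), 0 and 7 in the PBS pDC libraries (0 and 16.9 CPM) and 13 and 10 in the YG+ pDC libraries (18.2 and 17.7 CPM). The Sirpa+ DC libraries were above all pDC libraries, as for Wdfy4 and Xcr1. The difference of PBS pDCs from Sirpa+ DCs was -2.49 ± 0.78 and missed the threshold (adjusted p = 0.0642, edgeR), as did that of YG+ pDCs, at -1.79 ± 0.65 (adjusted p = 0.131, edgeR).

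The count of 0 for Naaa in PBS pDC replicate 1 allowed up to 16.9 CPM, which is the level of its partner. Fitted to genes with no exon on the opposite strand, the PBS pDC difference of Naaa was -2.50 and was called (adjusted p = 0.0396, edgeR). It was also called with no filter on low counts (adjusted p = 0.0153, edgeR) and without PBS pDC replicate 2 (adjusted p = 0.0222, edgeR), where only the library with 0 counts was left. The fitted log2 fold change there was -7.81 ± 2.00, which is no bound, and without PBS pDC replicate 1 it was -1.96 ± 0.68 (adjusted p = 0.0701, edgeR). Asah1, the related acid ceramidase, was 163 against 197 CPM in PBS pDCs and Sirpa+ DCs, a log2 difference of -0.32 ± 0.41 (adjusted p = 0.709, edgeR).

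Ppt1 (chromosome 4, 122836242 to 122859175, plus strand), a lysosomal palmitoyl-protein thioesterase that removes lipid anchors from proteins, was present at similar levels in every sort. Sirpa+ DC replicates had 153 and 200 CPM, PBS pDC replicates 264 and 126 CPM, and YG+ pDC replicates 112 and 156 CPM. Each pair of groups overlapped. The log2 differences were 0.09 ± 0.49 for PBS pDCs against Sirpa+ DCs (adjusted p = 0.932), -0.50 ± 0.48 for YG+ pDCs against Sirpa+ DCs (adjusted p = 0.584) and -0.59 ± 0.49 between the pDC groups (adjusted p = 0.694), all by edgeR. Of its exon length, 129 bases (3.51%) lay under Cap1, on the minus strand.

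Cadm1 (chromosome 9, 47530173 to 47857637, plus strand), an adhesion molecule of cDC1s that binds Crtam on T cells, was low in every sort. It had 3 and 15 counts in the Sirpa+ DC libraries (11.5 and 28.5 CPM), 4 and 8 in the PBS pDC libraries (22.5 and 19.3 CPM) and 22 and 15 in the YG+ pDC libraries (30.8 and 26.5 CPM). The YG+ pDC libraries lay within or just above the range of the Sirpa+ DC libraries, which spanned the PBS pDC values. No contrast passed the edgeR test (adjusted p of 0.787 to 0.932), with log2 differences of -0.13 ± 0.69, 0.33 ± 0.60 and 0.46 ± 0.65 for PBS pDCs against Sirpa+ DCs, YG+ pDCs against Sirpa+ DCs and YG+ against PBS pDCs. Its relative Cadm3 averaged 32.4 ± 2.56 CPM in Sirpa+ DCs against 5.23 ± 0.559 CPM in PBS pDCs (adjusted p = 0.0820, edgeR).

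Tlr3 (chromosome 8, 45395665 to 45411080, minus strand), the endosomal sensor of double-stranded RNA, was at the limit of detection. Sirpa+ DC replicates had 1 and 4 counts, PBS pDC replicates 0 and 1, and YG+ pDC replicates 3 and 3. It was the member that did not pass the filter on low counts and so was not tested in the fit used throughout, and 7.32% of its exon length lay under exons of Gm45542 on the opposite strand. Pooled levels were 6.36 CPM (exact 95% Poisson interval 2.06 to 14.8) in Sirpa+ DCs, 1.69 CPM (0.0428 to 9.42) in PBS pDCs and 4.69 CPM (1.72 to 10.2) in YG+ pDCs. These intervals overlap, and a difference was not detectable at this depth. Fitted with no filter, its log2 differences were -1.84 ± 2.05 for PBS pDCs against Sirpa+ DCs (adjusted p = 0.823), -0.39 ± 1.56 for YG+ pDCs against Sirpa+ DCs (adjusted p = 0.994) and 1.45 ± 2.02 between the pDC groups (adjusted p = 0.926), all by edgeR.

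Of the endosomal and surface relatives of Tlr3, Tlr9 was 243 ± 89.4 CPM in Sirpa+ DCs, 324 ± 60.9 CPM in PBS pDCs and 342 ± 36.3 CPM in YG+ pDCs. Tlr7, which like Tlr9 senses nucleic acid in pDCs, was 29.5 ± 25.5, 107 ± 87.8 and 137 ± 3.72 CPM in the same order. Neither passed for PBS pDCs against Sirpa+ DCs (adjusted p = 0.675 and 0.118, edgeR). The bacterial lipoprotein receptor Tlr2 averaged 226 ± 38.2 CPM in Sirpa+ DCs against 20.9 ± 21.7 CPM in PBS pDCs, where it was lower (-3.28 ± 0.65, adjusted p = 0.00893, edgeR).

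Snx22 (chromosome 9, 66065176 to 66069719, minus strand), a sorting nexin with a phosphoinositide-binding PX domain, had 816 and 552 CPM in the Sirpa+ DC libraries, 1170 and 338 CPM in the PBS pDC libraries, and 273 and 329 CPM in the YG+ pDC libraries. The PBS pDC libraries spanned the Sirpa+ DC range, and both YG+ pDC libraries lay below the other 4. The log2 differences were 0.14 ± 0.59 for PBS pDCs against Sirpa+ DCs (adjusted p = 0.914), -1.28 ± 0.60 for YG+ pDCs against Sirpa+ DCs (adjusted p = 0.231) and -1.43 ± 0.60 for YG+ against PBS pDCs (adjusted p = 0.403), all by edgeR. The YG+ difference from PBS pDCs was called without PBS pDC replicate 2 (-2.09, adjusted p = 0.00807, edgeR), and Snx22 turned to -1.16 for PBS pDCs against Sirpa+ DCs without replicate 1 (adjusted p = 0.0756, edgeR).

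Snx22 has the largest share of its exon length under exons of the opposite strand among the 7 genes. It lies tail to tail with Ppib, an abundant endoplasmic reticulum cyclophilin on the plus strand, and 825 bases (28.5%) of its exon length lie under Ppib exons, at 66065176 to 66065671 and 66066295 to 66066623. Snx22 held 1.33 to 5.94 times the counts of Ppib, with the highest ratio in PBS pDC replicate 1. No source used here states whether the counting used strand, or which strand. Without strand, reads of Snx22 and of Ppib cannot be told apart over these bases. If the opposite strand was counted, reads of Ppib over these bases would count as Snx22. Which setting holds was not tested. Ppib differed between PBS pDCs and Sirpa+ DCs by -0.37 ± 0.39 (adjusted p = 0.643, edgeR) and between the pDC groups by -0.19 ± 0.39 (adjusted p = 0.896, edgeR).

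The ratio between replicates moved with this kind of overlap over all genes that had at least 20 counts in a group. In PBS pDCs the median log2 CPM ratio of replicate 1 to replicate 2 was -0.57 in 3210 genes with no exon on the opposite strand, 0.78 in 360 genes with over 20% to 50% of their exon length so covered, and 1.01 in 75 genes above 50%. Snx22, in the second of these classes, had a ratio of 1.79, and Wdfy4, in the first, had -1.05. In Sirpa+ DCs the medians of these classes were -0.20, 0.37 and 0.59 and the Snx22 ratio was 0.56. In YG+ pDCs they ran the other way, at 0.01, -0.21 and -0.27, with a Snx22 ratio of -0.27. Wdfy4, Cadm1, Xcr1 and Naaa had no exon of the opposite strand over their exons. They thus belong to the first class, with its median of -0.57 in PBS pDCs. The part of these class differences in the levels of Snx22 and of the other members was not tested.

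**Figure D2:**
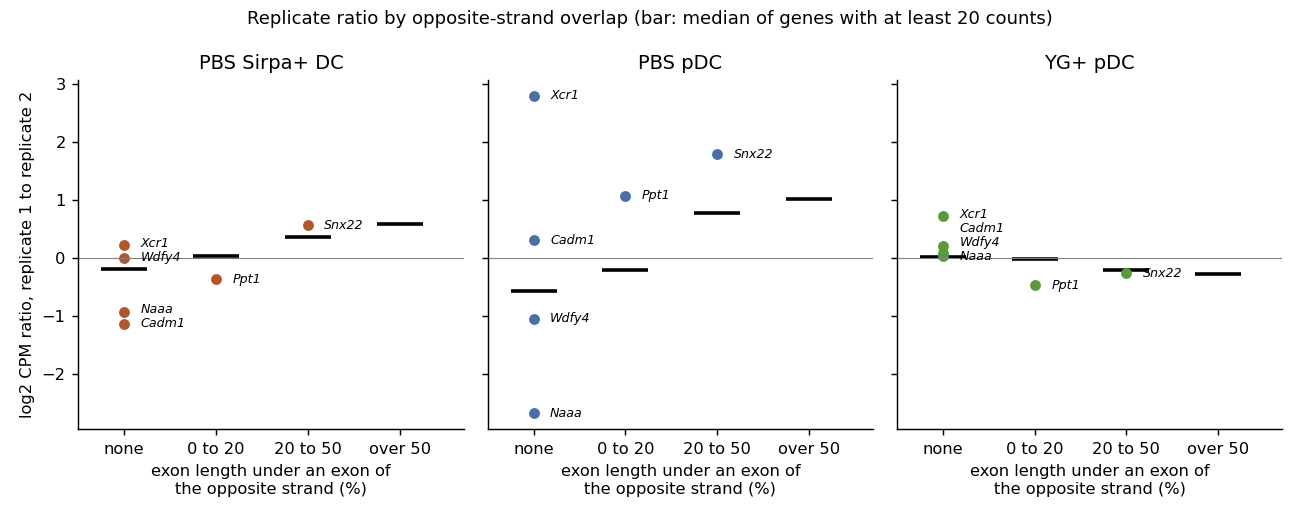
Log2 ratio of CPM in replicate 1 to replicate 2 (y axis) by the percent of exon length that opposite-strand exons cover (x axis), for the 3 groups, with black bars for the median of all genes with at least 20 counts and points for 6 of the 7 genes (all but Tlr3, at any count). In PBS pDCs the bars climb from -0.57 to 1.01 and Snx22 sits at 1.79, while in YG+ pDCs they fall from 0.01 to -0.27.

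Levels of different genes were compared per kilobase of exon (CPM per kb). In Sirpa+ DCs the order was Snx22 at 237 ± 64.5, Wdfy4 at 114 ± 0.0983, Ppt1 at 48.0 ± 8.98, Xcr1 at 16.1 ± 1.58, Naaa at 15.4 ± 7.19, Cadm1 at 1.92 ± 1.16 and Tlr3 at 1.10 ± 0.514. In that group Xcr1 and Naaa, and Cadm1 and Tlr3, differed by less than their spread. In PBS pDCs it was Snx22 at 261 ± 203, Ppt1 at 53.1 ± 26.7, Wdfy4 at 36.2 ± 18.1, Xcr1 at 2.80 ± 3.19, Naaa at 2.27 ± 3.21, Cadm1 at 2.00 ± 0.214 and Tlr3 at 0.232 ± 0.328. There Ppt1 and Wdfy4, and Xcr1, Naaa and Cadm1, differed by less than their spread, as did Xcr1 and Naaa from Tlr3. In YG+ pDCs the levels were 104 ± 13.7 for Snx22, 55.2 ± 2.15 for Wdfy4, 36.4 ± 8.39 for Ppt1, 4.82 ± 0.0991 for Naaa, 2.75 ± 0.290 for Cadm1, 2.72 ± 1.04 for Xcr1 and 0.913 ± 0.150 for Tlr3. Cadm1 and Xcr1 differed there by less than their spread. Ranked with 7704 tested genes of known length by this level over all libraries, Snx22 was at percentile 98.3, Wdfy4 at 92.8, Ppt1 at 88.1, Naaa at 33.1, Xcr1 at 31.6 and Cadm1 at 3.2. The Snx22 levels and rank include the 28.5% of its exon length under Ppib exons, where its counts may not be its own. The part of that stretch in its place was not tested.

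Of the 7 genes, 6 passed the filter. For PBS pDCs against Sirpa+ DCs 2 were called, both lower, beside 11.5% of 8141 tested genes (4.56% higher and 6.9% lower). At an unadjusted p under 0.05 there were 3, all lower, beside 24% (11% higher and 13% lower). The groups did not overlap for 3 of the 6, all lower, beside 45.7% (23.3% higher and 22.3% lower). These members' shares are given beside the background and not tested against it.

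For YG+ pDCs against Sirpa+ DCs 1 of the 6 was called, lower, beside 7.16% of tested genes (3.07% higher and 4.09% lower). At an unadjusted p under 0.05 there were 3, all lower, beside 22.8% (10.3% higher and 12.5% lower), and 4 did not overlap, all lower, beside 62.7% (36.6% higher and 26.1% lower). For YG+ against PBS pDCs edgeR called 0 of the 6, beside 0% of tested genes, while 1 of the 6, Snx22, had an unadjusted p under 0.05, beside 929 genes or 11.4% (4.69% higher and 6.72% lower). The pDC groups did not overlap for Wdfy4, Cadm1 and Naaa, higher in YG+, and Snx22, lower, beside 44.4% of tested genes (25.1% higher and 19.3% lower). DESeq2 called 45 genes in that contrast and limma-voom 0, with 0 members among them. For Cadm1, Xcr1 and Naaa DESeq2 gave no adjusted p there, so it could not call them. The median log2 difference of the tested members was -0.92 for PBS pDCs against Sirpa+ DCs, -1.21 for YG+ pDCs against Sirpa+ DCs and 0.41 for YG+ against PBS pDCs, where all tested genes had 0.08, 0.05 and 0.08.

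**Figure D3:**
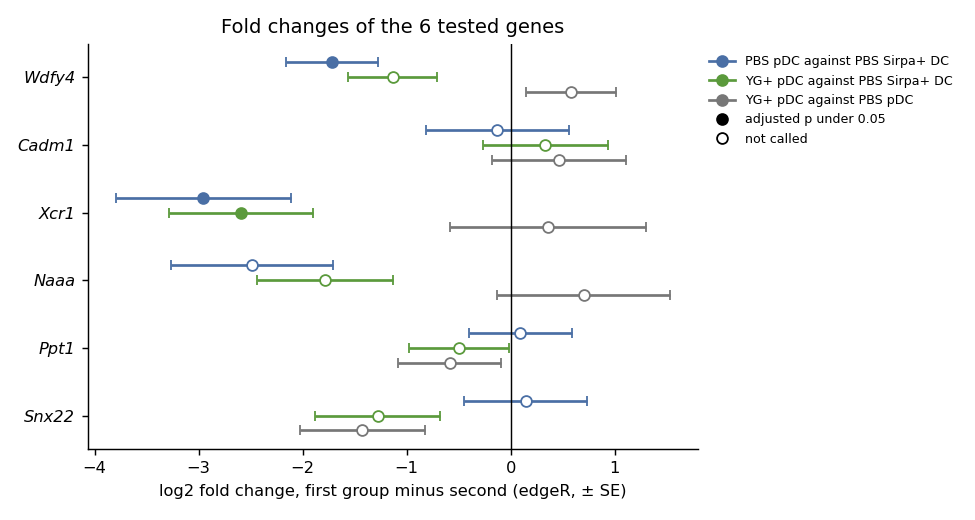
Log2 fold change (x axis, first named group minus second, edgeR, bars ± SE) of the 6 tested genes (y axis) in the 3 contrasts, with filled points at an adjusted p under 0.05. Filled points are Wdfy4 (-1.72) and Xcr1 (-2.96) for PBS pDCs against Sirpa+ DCs and Xcr1 (-2.60) for YG+ pDCs against Sirpa+ DCs.

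Other cDC1 markers were split between the sorts. Of 16 listed, 15 were in the table and 11 were tested, of which 6 were lower and 3 higher in PBS pDCs than in Sirpa+ DCs (median -2.49, against 0.08 for all tested genes). Of all tested genes, 6.9% were lower and 4.56% higher in that contrast. In YG+ pDCs against Sirpa+ DCs, 4 were lower and 2 higher (median -1.15), beside 4.09% and 3.07% of all tested genes. Clec9a, the receptor for actin of dead cells, was 226 and 291 CPM in the Sirpa+ DC libraries, 16.9 and 60.4 CPM in the PBS pDC libraries and 61.6 and 86.7 CPM in the YG+ pDC libraries. Both Sirpa+ DC libraries were above all pDC libraries, and PBS pDCs were lower at -2.68 ± 0.53 (adjusted p = 0.00888, edgeR), as were YG+ pDCs at -1.90 ± 0.48 (adjusted p = 0.0344, edgeR).

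Batf3, the transcription factor on which cDC1s depend, had 34.5 and 47.6 CPM in the Sirpa+ DC libraries and 0 counts in both PBS pDC libraries, so it was at least 8.09-fold higher in the former, at a floor of 3 counts over the group. In the YG+ pDC libraries it had 5 and 1 counts, and was lower than in Sirpa+ DCs (adjusted p = 0.0453, edgeR). Itgae, the integrin subunit CD103 of cDC1s, was 130 ± 15.6 CPM in Sirpa+ DCs, 10.5 ± 1.12 CPM in PBS pDCs and 19.5 ± 0.109 CPM in YG+ pDCs (-3.72 ± 0.56 in PBS pDCs, adjusted p = 0.00238, edgeR). Nfil3, a transcription factor needed for cDC1 development, was 276 ± 32.6, 39.0 ± 23.4 and 78.3 ± 8.15 CPM in the same groups (adjusted p = 0.00440 for PBS pDCs, edgeR), and the antigen receptor Ly75 116 ± 19.4, 18.5 ± 18.2 and 55.2 ± 13.0 CPM (adjusted p = 0.0193, edgeR). Id2, the sixth gene that was lower, opposes E proteins and was named after its values were seen, at 121 ± 23.5 CPM in Sirpa+ DCs and 38.2 ± 9.60 CPM in PBS pDCs.

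Irf8, Cd8a and Cd24a went the other way, the last named after its values were seen. Irf8, which cDC1s and pDCs both express, was 279 ± 58.2 CPM in Sirpa+ DCs, 1404 ± 491 CPM in PBS pDCs and 1327 ± 302 CPM in YG+ pDCs (adjusted p = 0.00943 for PBS pDCs, edgeR). Cd8a, the co-receptor chain found on lymphoid cDC1s, had 3.83 and 9.52 CPM in the Sirpa+ DC libraries, 45.0 and 72.5 CPM in the PBS pDC libraries and 81.2 and 104 CPM in the YG+ pDC libraries, with no overlap between Sirpa+ DCs and pDCs. Beside it the T cell markers summed to 119 to 143 CPM in Sirpa+ DCs, 444 to 561 in PBS pDCs and 468 to 584 in YG+ pDCs. Cd8b1, the partner chain of Cd8a, averaged 219 CPM in PBS pDCs, 185 CPM in YG+ pDCs and 3.82 CPM in Sirpa+ DCs. Cd4 averaged 214, 302 and 113 CPM and Lck 58.7, 27.8 and 4.77 CPM in the same order. Rag1 was at 10.1, 8.26 and 9.53 CPM, Cd3g at 0 in all 6 libraries and Cd3e at 0 in 5 of 6. Of 3 tested T cell markers, 2 were called higher in PBS pDCs than in Sirpa+ DCs by edgeR, beside 4.56% of all tested genes. The part of T cell markers in the Cd8a level was not tested. Fewer cells of a type and less RNA per cell cannot be told apart in sorted bulk samples. Gcsam and Clnk had 0 counts in every library.

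**Figure D4:**
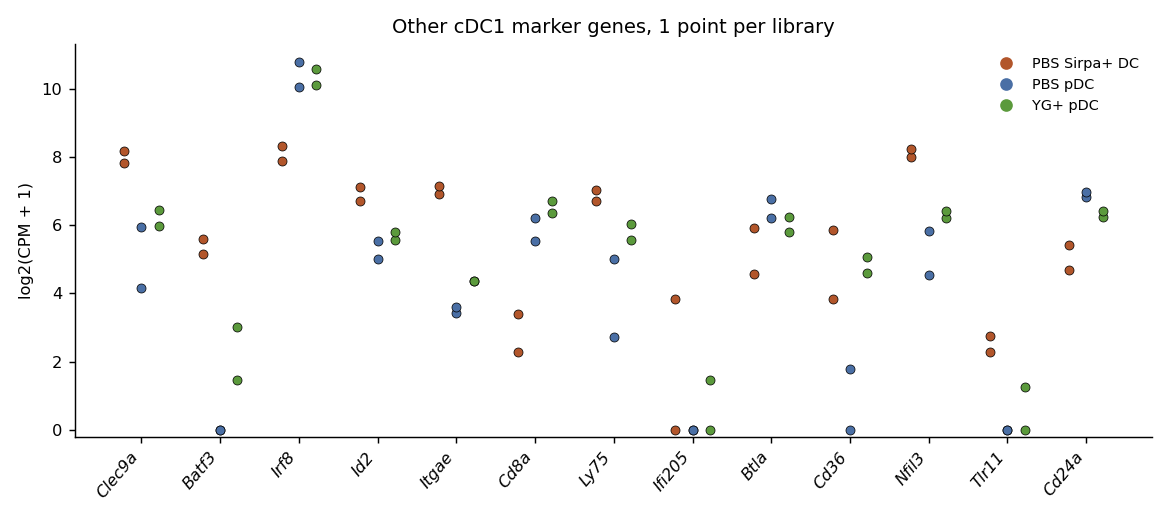
Level of 13 other cDC1 marker genes as log2(CPM + 1) (y axis), with 1 point per library coloured by group. Clec9a, Batf3, Id2, Itgae, Ly75 and Nfil3 are highest in both Sirpa+ DC libraries, and Irf8, Cd8a and Cd24a are highest in the pDC libraries.

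General machinery of class I cross-presentation was read in every sort. Of 27 listed genes (peptide transporter, chaperones, class I chains, Sec61, Rab proteins, NADPH oxidase and immunoproteasome), all were tested and 0 were called in any contrast by edgeR. Of all tested genes, 11.5% were called for PBS pDCs and 7.16% for YG+ pDCs against Sirpa+ DCs, and 0% between the pDC groups. At an unadjusted p under 0.05 there were 3 for PBS pDCs and 6 for YG+ pDCs against Sirpa+ DCs, beside 24% and 22.8% of all tested genes, and 0 between the pDC groups, beside 11.4%. Their median log2 difference was -0.15 in PBS pDCs against Sirpa+ DCs, against 0.08 for all tested genes. The gene closest to a call was Rab43, a small GTPase used in cross-presentation by cDC1s, at 330 ± 82.3 CPM in Sirpa+ DCs, 126 ± 43.5 CPM in PBS pDCs and 154 ± 4.34 CPM in YG+ pDCs (-1.43 ± 0.42 in PBS pDCs, adjusted p = 0.0506, edgeR). The proteasome activator Psme2 was at -1.05 ± 0.41 (adjusted p = 0.141) and the translocon gene Sec61a1 at 1.12 ± 0.48 (adjusted p = 0.179), both by edgeR.

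Genes that carry the Tlr3 signal were read in all sorts. There were 0 of the 8 listed and tested called by edgeR in YG+ against PBS pDCs and in YG+ pDCs against Sirpa+ DCs. Of all tested genes, 0% and 7.16% were called there. At an unadjusted p under 0.05 there were 2 and 0 in these contrasts, beside 11.4% and 22.8% of all tested genes. For PBS pDCs against Sirpa+ DCs 3 had an unadjusted p under 0.05, beside 24%. In that contrast 1 was called, lower in PBS pDCs, which is near the 11.5% of all tested genes. That gene was Traf6, a ubiquitin ligase, at 132 ± 14.1 CPM in Sirpa+ DCs, 29.8 ± 26.2 CPM in PBS pDCs and 104 ± 8.21 CPM in YG+ pDCs (-2.04 ± 0.53 for PBS pDCs, adjusted p = 0.0298, edgeR). Unc93b1, the chaperone that brings Tlr3, Tlr7 and Tlr9 to endosomes, was at 1.09 ± 0.43 (adjusted p = 0.136, edgeR).

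Among relatives and partners of the 7 genes, 13 of 24 were tested. For PBS pDCs against Sirpa+ DCs 3 were called, all lower, beside 11.5% of all tested genes (6.9% lower). For YG+ pDCs against Sirpa+ DCs 1 was called, lower, beside 7.16%, and between the pDC groups 0 were called, beside 0%. The 3 called lower in PBS pDCs than in Sirpa+ DCs were Tlr2, Wdfy3 and Wdfy2. Wdfy3, a BEACH domain relative of Wdfy4 and a scaffold of selective autophagy, had 146 and 190 CPM in Sirpa+ DCs, 14.5 and 45.0 CPM in PBS pDCs and 63.7 and 144 CPM in YG+ pDCs (-2.73 ± 0.66 for PBS pDCs, adjusted p = 0.0218, edgeR). Wdfy2, an endosomal FYVE protein, averaged 44.8 ± 14.7 CPM in Sirpa+ DCs against 1.21 ± 1.71 CPM in PBS pDCs (adjusted p = 0.0245, edgeR), with 1 count over both PBS pDC libraries. Wdfy1, another FYVE protein, had means of 30.6 CPM in PBS pDCs and 11.4 CPM in Sirpa+ DCs (1.30 ± 0.69, adjusted p = 0.283, edgeR). The Xcr1 ligand gene Xcl1 had 8 counts over the PBS pDC libraries, 1 over the YG+ pDC libraries and 0 over the Sirpa+ DC libraries.

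The genes whose log2 CPM over the 6 libraries was most like that of a member were found by Pearson correlation among 7702 tested genes, as a description over points that share libraries and depth. For Wdfy4 these were Cx3cr1 (0.997), Ncoa3 (0.997) and Bag3 (0.996). Cx3cr1, a chemokine receptor of some cDC2s and macrophages, was 146 CPM in Sirpa+ DCs, 7.25 CPM in PBS pDCs and 20.4 CPM in YG+ pDCs. For Xcr1 they were Emilin2 (0.992), Arrb2 (0.989) and Ccdc41 (0.989), for Naaa Atrnl1, Pde4b and Gpr132 (0.994 to 0.995) and for Cadm1 Cdca8 (0.993), Smarcc2 (0.991) and Dnttip2 (0.989). For Ppt1 they were Pdzd9 (0.996), Usmg5 (0.9865) and Rexo4 (0.9855), and for Snx22 Zrsr1, Hsd11b2 and Fam212a (all 0.994). Correlations above 0.95 were reached by 14 genes for Ppt1, 16 for Cadm1, 93 for Xcr1, 101 for Snx22, 169 for Naaa and 207 for Wdfy4. Among the members, Wdfy4 and Naaa correlated at 0.95, Ppt1 and Snx22 at 0.876, and Wdfy4 and Xcr1 at 0.655, while Wdfy4 and Snx22 were at -0.047.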

How the data were processed

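The authors deposited, for each sample, raw read counts by gene symbol. Cells were sorted, TRIzol was used for RNA and the Ovation SoLo RNA-Seq Mouse kit for cDNA libraries, per the labels' protocols. The submitters' processing notes name bcl2fastq 2.17 and mm10. The sources used here give no aligner, counting program, annotation or strand setting. The 5 summary lines that name no gene, 97.7% to 99.5% of all records, stayed out of library sizes and tests.

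Genes were filtered with filterByExpr (8141 kept), scaled with TMM factors and tested with edgeR 4.0.16 (glmQLFit, glmQLFTest) in R 4.3.3, with all 6 libraries in 1 fit of 3 group means, no replicate block, and Benjamini-Hochberg adjustment over all tested genes at 0.05. The fit was tested on simulated data. CPM used total gene counts, and log2 CPM a prior count of 2. Each library counted as 1 sample. Replicates of a group differed beyond counting noise (chi-square per degree of freedom 2.52 to 9.20), which does not show that they came from separate animals. GENCODE M21 matched 93.0% of symbols and gave positions, exon lengths and opposite-strand exons; promoter sequences are RefSeq's (GRCm38.p6). Replicate ratios used a pseudocount of 0.5. Alternatives were other scalings and filters, DESeq2 1.42.0, limma-voom (limma 3.58.1), the 4 libraries compared, a replicate block, genes free of opposite exons, and each library left out. Named genes are the 7 members, defining cDC1 genes, the list genes with the smallest p in PBS pDCs against Sirpa+ DCs and the 3 genes most correlated with a member. Fewer are printed. Tlr7, Tlr9, Asah1, Cadm3, Wdfy1 and Xcl1 were added after their values were seen, as relatives or partners of a member. Members and lists were chosen with earlier results of these data known. Figures were drawn with matplotlib 3.10.9 in Python 3.11.15.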

Additional observations from a re-analysis of the deposited data

How the results depend on the processing

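The log2 fold changes of Wdfy4, Xcr1 and Naaa against Sirpa+ DCs kept their sign under every alternative run. In PBS pDCs, with 1 library left out, they ranged from -2.25 to -1.36 for Wdfy4, -4.88 to -1.62 for Xcr1 and -7.81 to -1.92 for Naaa, with the lowest value of Naaa without PBS pDC replicate 2. For PBS pDCs against Sirpa+ DCs, the 2 called members became 1 with DESeq2 and 0 in a fit of the 4 libraries compared, where 580 of 6359 genes were called in place of 933. With 1 library left out, 0 to 2 members and 214 to 1278 genes were called. For YG+ pDCs against PBS pDCs, the called genes went from 0 to 141 with no filter, 45 with DESeq2 and 0 to 857 with 1 library left out (857 without PBS pDC replicate 2), and members from 0 to 0 to 1. For YG+ pDCs against Sirpa+ DCs, the 1 called member became 4 in a fit of the 4 libraries compared and 2 in genes with no exon on the opposite strand, and the 583 called genes became 894 with no filter and 1478 in the fit of 4 libraries. With 1 library left out there, 0 to 4 members and 70 to 1496 genes were called. Where a group was left with 1 library, that library was assumed to vary like the other groups. The cause of these changes was not tested.

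Among the alternatives run, signs turned only for members not called in the contrast concerned. For PBS pDCs against Sirpa+ DCs, limma-voom gave -0.042 for Ppt1 and -0.12 for Snx22, and the replicate block gave -0.017 for Snx22. With 1 library left out, Ppt1 ranged from -0.656 to 0.596, Snx22 from -1.16 to 0.803 and Cadm1 from -0.522 to 0.745. In YG+ pDCs against PBS pDCs, Xcr1 ranged from -0.974 to 2.30 and Ppt1 from -1.11 to 0.148, and in YG+ pDCs against Sirpa+ DCs Cadm1 ranged from -0.082 to 1.17.

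Equal sample numbers are not said to share an animal. Deviations of same-numbered libraries correlated at 0.298 between Sirpa+ DCs and PBS pDCs, -0.099 between Sirpa+ DCs and YG+ pDCs and -0.121 between the pDC groups. With the replicate block, 942, 0 and 633 genes were called in the 3 contrasts, and members called stayed at 2, 0 and 1. With the numbers of the YG+ pDC libraries crossed, an alternative chosen after seeing the data, 300 genes and 0 members were called between the pDC groups. At 177844 to 713966 gene counts a library, Tlr3 rested on 0 to 4 counts a library and did not pass the filter, and Cadm1, Xcr1 and Naaa rested on 0 to 40 counts a library.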
